A study of Homo sapiens with 32 samples.

Results

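The genes described here are the collagen chains and the proteins that modify, fold and cross-link them: the 44 chain genes with symbols of the form COL1A1, the 5 lysyl oxidases (LOX and LOXL1 to LOXL4), the 3 lysyl hydroxylases (PLOD1 to PLOD3), the 3 prolyl 4-hydroxylase catalytic subunits (P4HA1 to P4HA3) and SERPINH1, a collagen chaperone. They were chosen by symbol alone, without use of their counts, and all 56 were present in a count table of 19023 genes.

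Ribosome footprints (Ribo-seq, which sequences the stretches of mRNA that ribosomes cover) and RNA (RNA-seq of rRNA-depleted total RNA) were measured in wild-type RPE-1 cells, an hTERT-immortalised human line from retinal pigment epithelium. All cells were deprived of serum for 18 h. They were then sampled without serum (0 h) or after 5, 10 or 15 h of serum, with 4 replicates per time in each assay, 32 libraries in all. The series states that the replicates are biological. The line is 1 established cell line, so the measurements describe that line and not the tissue, and every time is compared with the same starved cells.

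Collagens are trimers of chains that carry repeated glycine triplets. In the endoplasmic reticulum, prolyl 4-hydroxylases act on prolines and stabilise the triple helix, lysyl hydroxylases act on lysines that later form cross-links, and SERPINH1 (HSP47) holds the folded helix until export. Outside the cell, lysyl oxidases convert lysines to aldehydes from which cross-links form. In the eye, the retinal pigment epithelium rests on a basement membrane in which the network-forming collagen IV is a main component.

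RNA libraries held 595851 to 1107470 counted reads and footprint libraries 2851423 to 9901322, so footprint values are the more precise. Levels are given as CPM, read counts scaled to a common library total, after TMM scaling within an assay. A gene is called changed at an adjusted p under 0.05 in edgeR's quasi-likelihood test, adjusted over all genes tested, and errors of log2 changes are standard errors. The error after a mean level is the SD of the 4 libraries. Markers of retinal pigment epithelium were low: 11 of 12 listed genes were in the table, and TTR had no count. Their summed RNA level was 77.5 to 90.0 CPM at 0 h against 24.9 to 41.2 at 5 h, 31.2 to 62.5 at 10 h and 33.6 to 43.9 at 15 h. Mesenchymal markers summed to 7003 to 12305 CPM of RNA over all libraries and epithelial markers to 1010 to 2195 CPM. A filter on low counts kept 7 of the 9 mesenchymal markers in RNA but only 2 of the 6 epithelial ones. Of those 6, 3 had at most 3 counts over all RNA libraries. Summed endothelial markers reached at most 89.7 CPM of RNA and blood markers 31.8, with HBA1 and HBB without a count. The part of these marker levels in the results was not tested. In bulk libraries, fewer cells of a type and less RNA per cell cannot be told apart.

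Not all members could be measured. After a filter on low counts, 23 of the 56 were tested in RNA (13 chains, 10 enzymes) and 35 in footprints (23 chains and all 12 enzymes and chaperone). The 12 tested in footprints only were COL14A1, COL1A1, COL27A1, COL3A1, COL4A4, COL4A6, COL5A1, COL6A3, COL9A2, COL9A3, LOXL4 and P4HA3. COL3A1 and LOXL4 would not have passed without their libraries at 0 h, where they were highest. COL27A1 and COL9A2 would not have passed without those at 5 h, where they were highest. Their changes against those groups are thus not independent of the filter, and they are included in the counts of calls below. The remaining 21, all of them chains, passed in neither assay, and their highest group mean was 5.37 CPM in RNA and 1.16 in footprints. They include COL1A2 and COL2A1, which with COL1A1 and COL3A1 encode the fibrillar collagens of bone, skin and cartilage. COL1A1 itself reached only 10.7 ± 2.3 CPM (SD, n = 4) of footprints at 0 h.

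Of the 4 footprint libraries at 5 h, replicate 2 was the highest for 11 of the 12 members with at least 20 CPM in both assays and a call in both. Its part in the 5 h results was not tested beyond leaving it out. Without it, 25 members were called at 5 h (10 higher, 15 lower) instead of 26, and the log2 changes at 5 h were 1.96 for COL4A1, 0.71 for COL7A1, 2.63 for LOX, 1.0 for P4HA2, -0.35 for PLOD1 and 0.24 for PLOD2. COL18A1 and COL6A3 lost their 5 h calls. In RNA, replicate 1 was the lowest for 8 of the 12 members at 0, 10 and 15 h. RNA replicate 2 was the highest for 9 at 5 h and for 6 at 10 h and at 15 h. The part of these RNA libraries was not tested beyond leaving each out.

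After serum, members rose and fell in similar numbers in RNA, and more fell than rose in footprints. Chains, which were 23 of the 35 members tested in footprints, held 15 of the 20 falls at 10 h and 13 of the 19 at 15 h. In RNA, 5 members rose and 3 fell at 5 h of the 23 tested, 4 rose and 5 fell at 10 h, and 5 rose and 6 fell at 15 h, each time compared with the starved cells. Of all genes tested in RNA, 19.2% rose and 16.7% fell at 5 h, 23.3% and 21.5% at 10 h, and 25.4% and 25.4% at 15 h. In footprints, 12 members rose and 14 fell at 5 h of the 35 tested, 10 rose and 20 fell at 10 h, and 10 rose and 19 fell at 15 h. The shares of all genes were 35.2% and 40.5% at 5 h, 39.4% and 39.0% at 10 h, and 40.1% and 39.6% at 15 h. Of the 23 chains tested in footprints, 8 rose and 11 fell at 5 h, 4 and 15 at 10 h, and 5 and 13 at 15 h. The 12 enzymes and chaperone had 4 rises and 3 falls, 6 and 5, and 5 and 6. Whether the members' shares differ from those of all genes was not tested. The members' median footprint log2 change was -0.10, -0.35 and -0.46 at the 3 times, against -0.07, -0.02 and -0.01 over all genes tested. In RNA the medians were -0.12, -0.05 and -0.25, against -0.03, -0.03 and -0.04. Scaling to library totals without TMM lowered the footprint medians of all genes to -0.36, -0.30 and -0.35 and the RNA medians to -0.14, -0.12 and -0.21, and the split of called members was then 8 higher and 22 lower in footprints at 5 h and 3 higher and 8 lower in RNA at 15 h. The 15 h RNA count depended on single libraries: it was 6 without replicate 1 at 15 h and 7 without replicate 3 at 0 h or replicate 4 at 15 h. At 10 h it was 6 instead of 9 without replicates 2 or 3 at 0 h or 1 or 4 at 10 h.

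**Figure D1:**
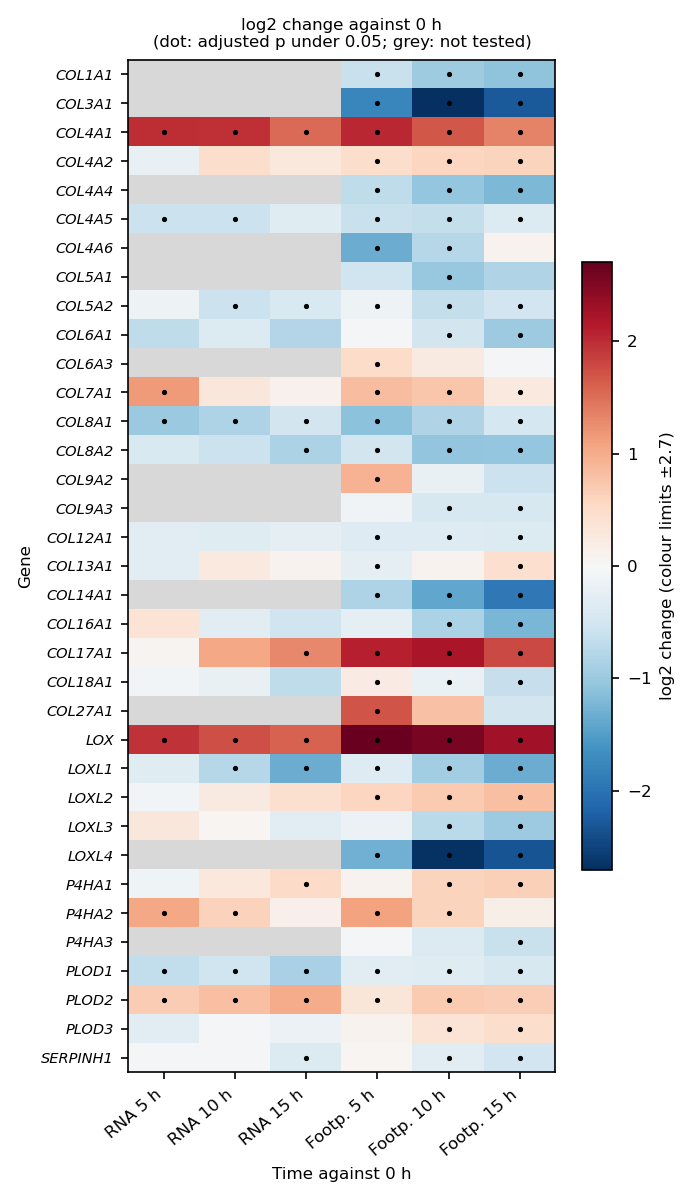
Fitted log2 change against 0 h (colour, limits ±2.7) for the 35 tested members (rows) in RNA and footprints at 5, 10 and 15 h (columns); a dot marks an adjusted p under 0.05 and grey a gene not tested. LOX and COL4A1 are high in every column, COL8A1 and PLOD1 are low in every column, and LOXL1 falls further with time.

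The calls that both assays made went the same way. Of the 23 members tested in both, 8 were called in both at 5 h, 9 at 10 h and 11 at 15 h, each in the same direction in RNA and footprints, which come from separate libraries. Footprints alone called 17, 22 and 22 of these 23. No count of shared calls was made over all genes, so the agreement is not shown to be particular to the members. Between the serum times, 5 of the 35 members rose in footprints and 14 fell from 5 to 10 h, where 61.7% of all genes were called (3396 higher and 3366 lower of 10959). From 10 to 15 h, 4 rose and 10 fell, where 20.8% and 20.2% of all genes did. The share of members called was thus no higher than that of all genes in either step. In RNA, edgeR without a replicate block called 0 members in either step, with 4 and 3 at an unadjusted p under 0.05. Of all genes, 19.7% and 5.91% were called either way. DESeq2 also called 0 in both steps. An edgeR fit with the replicate number as a block did call members in both steps, as given in the last section. That fit called 2453 and 1170 of 8775 genes.

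The basement membrane chains of collagen IV parted from each other. Footprints of COL4A1 rose 4.13-fold at 5 h, whereas those of COL4A2, its usual partner in the same trimer, rose 1.39-fold. The genes lie head to head on chromosome 13 of GRCh38.p14 (COL4A1 at 110148963-110307157 on the minus strand, COL4A2 at 110307284-110513209 on the plus strand), with 126 bases between their annotated starts. That stretch is shown because both genes start from its edges. It is RefSeq sequence from chr13:110307158-110307283, plus strand, 80.2% G or C, and capitals mark a CCAAT match and a GGGCGG match:
COL4A1-COL4A2 space: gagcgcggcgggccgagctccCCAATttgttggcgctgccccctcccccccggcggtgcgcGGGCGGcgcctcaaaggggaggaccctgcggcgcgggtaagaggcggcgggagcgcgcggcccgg

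COL4A1 RNA was 43.6, 76.3, 89.5 and 44.8 CPM in the 4 libraries at 0 h and 193, 342, 201 and 278 CPM at 5 h. It was 139, 319, 265 and 281 CPM at 10 h and 133, 264, 174 and 164 CPM at 15 h. No library with serum overlapped the starved ones. The log2 changes against 0 h were 2.0 ± 0.29, 1.98 ± 0.29 and 1.53 ± 0.29 (adjusted p = 2.5e-05, 1.9e-05 and 0.00025). COL4A1 footprints were 162, 168, 169 and 177 CPM at 0 h and 655, 812, 680 and 649 CPM at 5 h. They were 562, 535, 497 and 584 CPM at 10 h and 448, 384, 435 and 449 CPM at 15 h. Footprints thus peaked at 5 h among the times sampled and then fell at each step, with log2 changes of 2.05 ± 0.07 at 5 h against 0 h, -0.36 ± 0.06 from 5 to 10 h and -0.34 ± 0.06 from 10 to 15 h.

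COL4A2 RNA was spread too widely for a call. It ranged from 89.7 to 267 CPM at 0 h and from 117 to 181 at 5 h, a log2 change of -0.20 with a 95% interval of -0.97 to 0.57. Its footprints were 528, 507, 544 and 554 CPM at 0 h, 701, 870, 723 and 663 at 5 h, 780, 806, 760 and 850 at 10 h, and 882, 758, 797 and 819 at 15 h. The rise was 0.47 ± 0.06, 0.58 ± 0.06 and 0.61 ± 0.06 on the log2 scale, without a decline. The pattern of COL4A2 thus differed from that of COL4A1 after 5 h.

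The ratio of COL4A1 to COL4A2 within a library, in counts per deposited gene length, needs no scaling between libraries. In footprints its mean moved through 0.326, 0.972, 0.699 and 0.541 at the 4 times in order. In RNA it moved through 0.444, 1.93, 1.28 and 1.04. None of the 3 serum times overlapped 0 h in either assay. Each of the 6 comparisons had a two-sided exact permutation p of 0.0286, the smallest that 4 against 4 libraries allow, and 0.0390 after Benjamini-Hochberg adjustment over 30 such ratio tests (5 pairs of members, both assays and 3 times). COL4A1 RNA per length thus stood below COL4A2 in all 4 starved libraries and above it in all 4 at 5 h. The adjusted p of every ratio depends on the other tests in the set. These include ratios of LOX to LOXL1 and of PLOD2 to PLOD1 whose p was fixed by the levels, as given below, so the adjusted p adds little here.

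**Figure D2:**
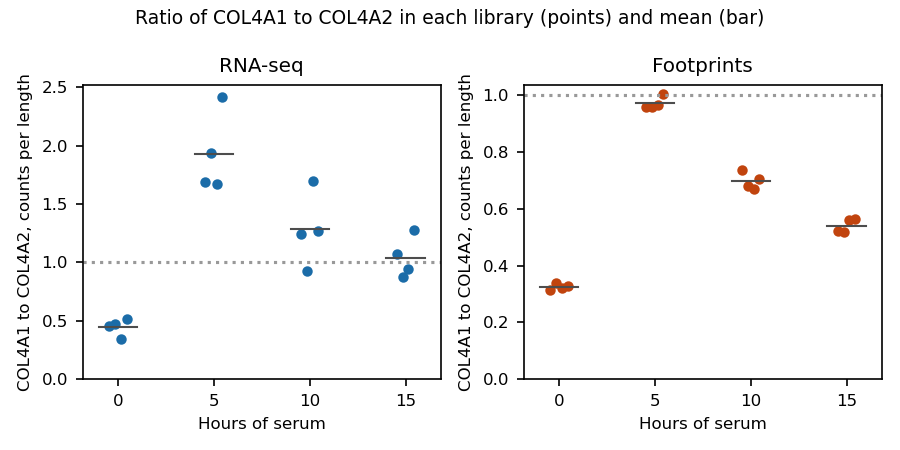
Ratio of COL4A1 to COL4A2 counts per deposited length in each library (points) with the group mean (bar) over hours of serum, in RNA (left) and footprints (right); the dotted line is a ratio of 1. Means move from 0.444 to 1.93 in RNA and from 0.326 to 0.972 in footprints between 0 and 5 h.

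The other collagen IV chains fell or were hardly detected. COL4A5, which pairs with COL4A6 or with COL4A3 and COL4A4, had footprints of 197, 207, 207 and 197 CPM at 0 h and 131, 148, 130 and 126 at 5 h. They were 129, 129, 129 and 135 CPM at 10 h and 170, 165, 147 and 149 at 15 h. The starved libraries stood above all others, and the log2 changes against 0 h were -0.60 ± 0.06, -0.63 ± 0.06 and -0.37 ± 0.06, with a rise of 0.27 ± 0.06 from 10 to 15 h. COL4A5 RNA was 88.4, 124, 169 and 117 CPM at 0 h, 96.6, 86.2, 63.6 and 85.5 at 5 h, 55.3, 91.3, 96.8 and 89.2 at 10 h, and 64.1, 106, 115 and 110 at 15 h. Those groups overlapped. RNA was called lower at 5 h (-0.59 ± 0.22) and 10 h (-0.58 ± 0.22) and not at 15 h (-0.33 ± 0.21). The 5 h call was lost without replicate 3 at any time or replicate 4 at 5, 10 or 15 h (range -0.77 to -0.40). The 10 h call was lost without replicates 2 or 3 at 0 h, 3 at 5 h, 1, 2 or 4 at 10 h, or 2 or 4 at 15 h (-0.70 to -0.35), and in a fit of those groups alone. COL4A6, whose start lies 379 bases from that of COL4A5, had mean footprints of 3.37 CPM before serum and 1.35, 1.97 and 3.79 CPM after. It fell by 1.35 ± 0.28 on the log2 scale at 5 h and rose by 0.87 ± 0.23 from 10 to 15 h. COL4A4 footprints fell from 4.39 to 1.86 CPM by 15 h (-1.21 ± 0.23). COL4A3, whose start is separated from that of COL4A4 by 135 bases, was not tested.

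**Figure D3:**
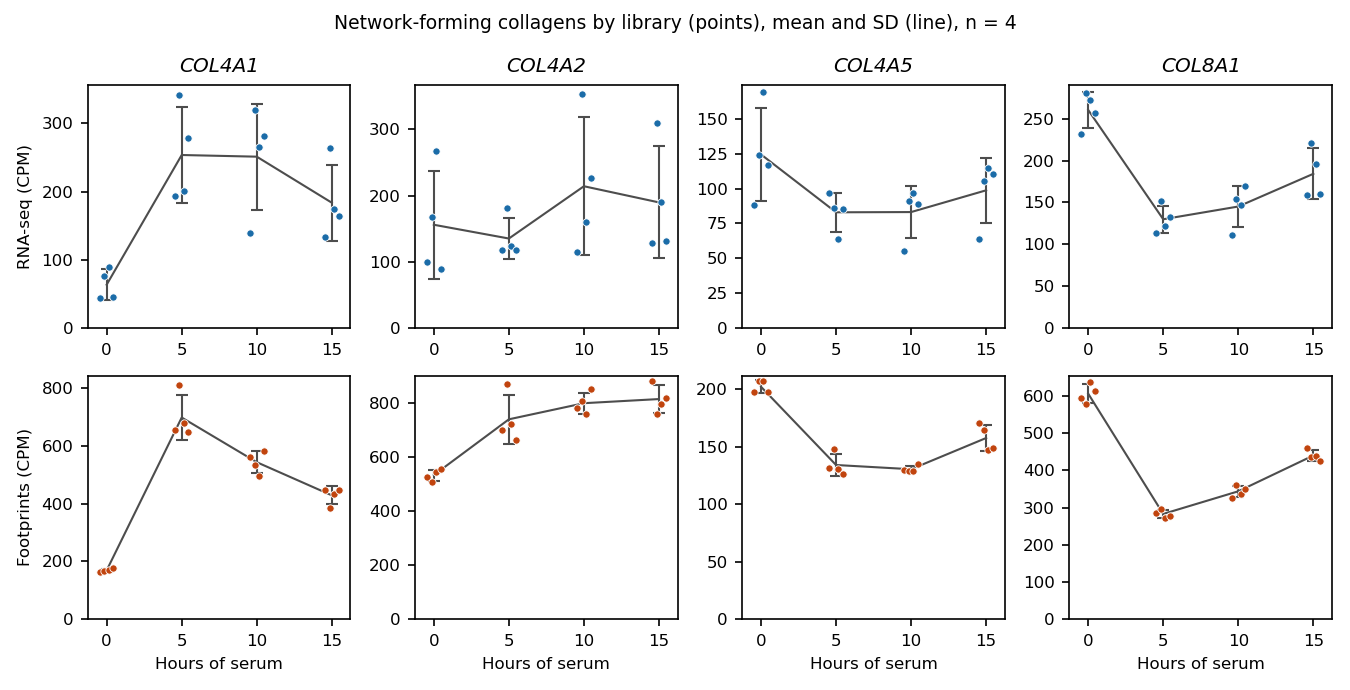
RNA (top, blue) and footprint levels (bottom, red) in CPM of COL4A1, COL4A2, COL4A5 and COL8A1 over hours of serum; points are the 4 libraries per time, lines join the means and bars are SD. COL4A1 rises at 5 h, COL4A2 footprints climb to a plateau, and COL4A5 and COL8A1 dip below every starved library in footprints.

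COL8A1, a short-chain collagen that forms hexagonal lattices and belongs to the basement membranes of eye and vessels, had the highest level per length of any chain in RNA at all 4 times. In footprints it ranked first at 0, 10 and 15 h and was the third at 5 h, with 279 CPM per kb in starved cells and 130 after 5 h, when COL4A2 stood at 146 and COL4A1 at 141. Its RNA was 231, 281, 273 and 257 CPM at 0 h, 114, 151, 121 and 133 at 5 h, 111, 154, 147 and 169 at 10 h, and 159, 221, 196 and 160 at 15 h. Footprints were 595, 579, 636 and 614 CPM at 0 h, 285, 297, 271 and 278 at 5 h, 326, 361, 337 and 349 at 10 h, and 460, 436, 438 and 425 at 15 h. Starved libraries were the highest in both assays, and 5 h libraries the lowest in footprints. The log2 changes at 5 h were -1.0 ± 0.16 in RNA and -1.10 ± 0.05 in footprints. Footprints rose again by 0.28 ± 0.05 from 5 to 10 h and by 0.36 ± 0.05 from 10 to 15 h, and remained 0.46 ± 0.05 below 0 h on the log2 scale. At 15 h the RNA call (-0.50 ± 0.15) was lost without replicate 3 at 0 h or replicates 1 or 4 at 15 h, where it ranged down to -0.33, and with no filter on low counts.

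COL8A2, the partner chain of COL8A1, did not recover. Its footprints fell from 16 ± 3.5 CPM at 0 h to 10.9, 7.42 and 8.05 CPM at the serum times, with log2 changes of -0.50 ± 0.16, -1.06 ± 0.17 and -1.05 ± 0.17. RNA fell from 112 ± 32 to 62.1 ± 15 CPM by 15 h (-0.85 ± 0.26), a call lost without replicate 3 at 0 h or replicates 1 or 4 at 15 h (-0.98 to -0.56 over all left-out libraries). The ratio of footprint to RNA CPM of COL8A2 was 0.142 at 0 h, at the 3.13th percentile of genes tested in both assays. The ratio of COL8A1 to COL8A2 footprints fell at 5 h from 37.1 to 24.4 (exact permutation p = 0.0286, adjusted 0.0390), and the other 5 comparisons of this pair had adjusted p from 0.143 to 0.562.

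COL7A1 forms the anchoring fibrils that tie a basement membrane to the stroma. Its RNA was 10.9, 25.4, 33.2 and 29.9 CPM at 0 h, 44.9, 65.2, 53.0 and 53.0 at 5 h, 14.3, 48.1, 35.9 and 23.4 at 10 h, and 18.9, 32.7, 36.1 and 19.8 at 15 h. Only at 5 h did it stand clear of 0 h (1.15 ± 0.33, adjusted p = 0.0091). Footprints were 34.6, 36.8, 42.7 and 33.3 CPM at 0 h, 62.2, 83.1, 61.4 and 59.1 at 5 h, 58.4, 60.2, 61.8 and 68.1 at 10 h, and 50.1, 42.4, 41.2 and 45.8 at 15 h. All libraries of 5 and 10 h were above 0 h, with log2 changes of 0.83 ± 0.10 and 0.74 ± 0.10. The footprint call at 15 h (0.26 ± 0.10) was lost without replicates 1 or 4 at 0 h or at 15 h (0.20 to 0.35), was 0.18 and not called with the stricter filter, and turned to -0.083 when scaled to library totals.

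Among fibrillar chains, COL5A2, which regulates fibril diameter as part of collagen V, was the best measured. Its RNA was 223, 226, 342 and 277 CPM at 0 h, 200, 269, 230 and 260 at 5 h, 159, 199, 148 and 200 at 10 h, and 167, 208, 199 and 221 at 15 h. Libraries of 10 and 15 h lay below all starved ones. RNA fell by 0.59 ± 0.16 on the log2 scale at 10 h (-0.39 without replicate 3 at 0 h, where the call was lost) and by 0.42 ± 0.16 at 15 h. The 15 h call was lost with any of 9 libraries left out, namely replicates 3 or 4 at 0 h, 3 at 5 h, 1 or 2 at 10 h and each at 15 h (-0.50 to -0.19), with no filter and in a fit of those groups alone. Footprints of COL5A2 were 285, 277, 301 and 260 CPM at 0 h, 250, 264, 266 and 239 at 5 h, 177, 186, 168 and 185 at 10 h, and 201, 205, 188 and 186 at 15 h. The fall was small at 5 h (-0.14 ± 0.05, lost without replicates 1 or 3 at 0 h or 4 at 5 h, down to -0.096, with no filter and in a fit of those groups alone) and larger at 10 h (-0.65 ± 0.05) and 15 h (-0.53 ± 0.05).

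The fibrillar chains at low levels also fell in footprints. COL1A1 went from 10.7 to 4.95 CPM at 15 h (-1.08 ± 0.16). COL3A1 rested on 27 footprints summed over the 4 starved libraries and 11, 4 and 8 at the serum times (-1.75 ± 0.46, -3.23 ± 0.58 and -2.28 ± 0.50). Because COL3A1 passed the filter only through the starved libraries, its fall is not independent of the filter. COL5A1 was called only at 10 h (-1.02 ± 0.39), and the call was lost without replicate 3 at 0 h or replicates 2 or 3 at 10 h (-1.26 to -0.67). COL27A1 went the other way at first, with 15 footprints at 0 h and 70 at 5 h (1.69 ± 0.37), and fell by 1.28 ± 0.40 from 10 to 15 h. It passed the filter only with the help of the 5 h libraries, so its 5 h rise is not independent of the filter.

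Chains that associate with fibrils or cell surfaces moved separately. COL12A1, a fibril-associated chain, fell in footprints from 1105 ± 63 CPM to 865, 868 and 851 CPM (-0.35 ± 0.05, -0.35 ± 0.05 and -0.38 ± 0.05), and its RNA was not called (-0.29, -0.32 and -0.25). COL14A1 footprints fell progressively from 6.52 to 1.58 CPM (-1.93 ± 0.28 at 15 h), and those of COL16A1 from 4.21 to 1.85 CPM (-1.24 ± 0.25). COL9A3 was called lower at 10 and 15 h (-0.43 ± 0.18 and -0.44 ± 0.18), each call lost in 4 of the left-out libraries, replicates 1 or 2 at 0 h and 3 or 4 of the later time (-0.55 to -0.31 at 15 h). COL9A2 was higher at 5 h only (0.93 ± 0.36, lost without replicate 4 at 0 h or 3 at 5 h, 0.73 to 1.11, with DESeq2 and on library totals). It passed the filter only with the help of the 5 h libraries, so this rise is not independent of the filter. COL17A1, a transmembrane collagen of hemidesmosomes, rose from 36 footprints at 0 h to 220, 261 and 189 (2.09 ± 0.23, 2.20 ± 0.23 and 1.79 ± 0.24). Its RNA rise at 15 h (1.29 ± 0.51, 6.80 to 16.5 CPM) was lost without replicates 1, 2 or 4 at 0 h or 1 at 15 h (0.70 to 1.83) and on library totals (1.12). COL13A1, another transmembrane chain, went from 22.4 to 31.3 CPM of footprints by 15 h (0.46 ± 0.10; 0.11 on library totals), after a dip at 5 h (-0.24 ± 0.11) that was lost without replicates 2 or 4 at 0 h or 3 or 4 at 5 h (-0.28 to -0.18), with no filter, with DESeq2 and in a fit of those groups alone.

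Footprints of COL6A1, a chain of the beaded filaments around cells, fell late, from 153 ± 5.1 CPM (SD, n = 4) in starved cells and 148 ± 12 after 5 h to 109 ± 10 and then 77.4 ± 5.4 CPM. The log2 changes were -0.05 ± 0.06, not called, then -0.49 ± 0.06 and -0.99 ± 0.07. COL6A3 was called higher at 5 h only (0.49 ± 0.20, lost without replicate 4 at 0 h or 2 at 5 h, 0.34 to 0.66, and 0.20 on library totals). COL18A1, the basement membrane proteoglycan from which endostatin is cut, ended lower (109 ± 4.2 to 72.6 ± 11 CPM, -0.61 ± 0.08). Its small rise at 5 h (0.21 ± 0.08) was 0.16 and not called without replicate 2 at 5 h, 0.15 with the stricter filter, and -0.078 on library totals. Its 10 h fall (-0.17 ± 0.08) was lost in 8 left-out libraries, replicates 1 to 3 at 0 h and 10 h and 3 or 4 at 5 h (-0.21 to -0.13), with no filter and with the replicate block.

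LOX, the founding lysyl oxidase, had the largest rise in footprints of any member at each serum time. LOX RNA was 36.3, 74.1, 47.6 and 47.8 CPM at 0 h, 166, 266, 185 and 186 at 5 h, 146, 229, 155 and 159 at 10 h, and 116, 239, 108 and 161 at 15 h. Its footprints were 328, 355, 339 and 316 CPM at 0 h, 2099, 2301, 2135 and 2002 at 5 h, 1925, 1962, 1919 and 2103 at 10 h, and 1722, 1522, 1561 and 1597 at 15 h. Every serum library exceeded every starved one in both assays. The log2 changes were 1.95 ± 0.26, 1.73 ± 0.26 and 1.59 ± 0.26 in RNA and 2.67 ± 0.06, 2.56 ± 0.06 and 2.26 ± 0.06 in footprints, where the latter is 6.38-fold at 5 h. Footprints fell by 0.31 ± 0.05 on the log2 scale from 10 to 15 h.

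LOXL1, which acts in elastic fibre assembly, fell while LOX rose. Its RNA was 56.9, 91.1, 91.0 and 76.2 CPM at 0 h, 60.4, 78.2, 50.6 and 60.6 at 5 h, 23.6, 63.4, 62.4 and 38.7 at 10 h, and 21, 51.4, 25.8 and 25 at 15 h. Its footprints were 112, 94.3, 85.7 and 88.3 CPM at 0 h, 72.7, 80.5, 70.9 and 72.1 at 5 h, 48.2, 50.5, 44.9 and 53.3 at 10 h, and 49.9, 29.4, 39.8 and 34.5 at 15 h. Footprint groups at each serum time lay below 0 h, with log2 changes of -0.35 ± 0.11, -0.94 ± 0.11 and -1.34 ± 0.11. RNA was not called at 5 h (-0.33 ± 0.28) and fell at 10 h (-0.76 ± 0.28) and 15 h (-1.33 ± 0.29). The 10 h RNA call was lost without replicates 2 or 3 at 0 h, 3 at 5 h, 1 or 4 at 10 h or 4 at 15 h (-0.90 to -0.48). The ratio of LOX to LOXL1 per length in footprints rose from 3.68 at 0 h to 29.9, 41.7 and 44.5, and in RNA from 0.674 to 3.33, 4.25 and 5.39. All 6 comparisons had an exact permutation p of 0.0286 (adjusted 0.0390). In footprints at each time, and in RNA at 15 h, LOX lay above and LOXL1 below every starved library. That fixes the p of those ratios, so it adds nothing to the levels.

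Promoter sequences of LOX, LOXL1 and PLOD2 are shown because LOX and PLOD2 rose while LOXL1 fell. Each is the 250 bases before the outermost RefSeq start in GRCh38.p14: LOX chr5:122078260-122078509 (minus strand), LOXL1 chr15:73926212-73926461 (plus) and PLOD2 chr3:146161185-146161434 (minus). Capitals mark matches on either strand to the CCAAT box, to the GC box GGGCGG and to the core ACGTG of the hypoxia-response element:
LOX upstream: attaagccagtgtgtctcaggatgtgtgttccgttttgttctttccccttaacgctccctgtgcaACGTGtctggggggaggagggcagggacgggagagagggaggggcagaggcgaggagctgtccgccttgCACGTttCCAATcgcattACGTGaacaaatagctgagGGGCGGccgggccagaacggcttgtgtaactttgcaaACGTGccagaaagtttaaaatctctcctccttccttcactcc
LOXL1 upstream: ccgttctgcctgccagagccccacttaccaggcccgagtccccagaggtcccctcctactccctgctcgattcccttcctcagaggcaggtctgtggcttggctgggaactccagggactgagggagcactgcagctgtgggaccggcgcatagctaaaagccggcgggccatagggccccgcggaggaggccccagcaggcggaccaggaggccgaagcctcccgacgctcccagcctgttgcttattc
PLOD2 upstream: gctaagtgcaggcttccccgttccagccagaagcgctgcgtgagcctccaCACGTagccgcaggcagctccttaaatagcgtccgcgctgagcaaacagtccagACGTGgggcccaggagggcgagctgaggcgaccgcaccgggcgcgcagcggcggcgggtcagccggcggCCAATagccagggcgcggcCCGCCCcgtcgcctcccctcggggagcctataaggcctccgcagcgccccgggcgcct

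The LOX stretch held 4 matches to ACGTG, 1 to CCAAT and 1 to GGGCGG. That of PLOD2 held 2, 1 and 1, and that of LOXL1 held none of the 3. Among other members, ACGTG was in the window of COL12A1, whose footprints fell, and of P4HA1, whose footprints rose. The motif was absent from the windows of, among others, COL4A1, COL4A2, COL7A1, COL17A1 and PLOD3, which rose in footprints, and of PLOD1 and COL8A2, which fell. Whether the motif goes with the direction of change was not tested. For scale, ACGTG occurred in 18.5% of all 35116 RefSeq windows of this length, CCAAT in 32% and GGGCGG in 42.6%. Windows were found for 42 of the 56 members, 58 windows in all because some genes have several starts, and the motifs occurred in 22.4%, 27.6% and 53.4% of those. The TEAD motif GGAATG was in 6.90% of member windows and 11.9% of all, TATAAA in 15.5% and 10.7%, the CArG box in 1.72% and 1.16%, and the AP-1 motif TGAGTCA in none of the 58 and 4.20% of all. Both strands were searched, and no motif searched contains another. These are matches of letters in short windows, not measured sites.

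The remaining lysyl oxidases split as well. LOXL2, which acts on collagen IV, rose in footprints from 392 ± 8.5 CPM to 589 ± 57, 636 ± 23 and 685 ± 22 (0.59 ± 0.06, 0.70 ± 0.06 and 0.81 ± 0.06). Its RNA was not called, with 95% intervals of -0.87 to 0.73, -0.54 to 1.03 and -0.34 to 1.21. LOXL3 footprints fell from 12.7 to 7.60 and 6.35 CPM at 10 and 15 h (-0.73 ± 0.14 and -0.97 ± 0.15). LOXL4 rested on 71 footprints at 0 h and 41, 17 and 21 later (-1.29 ± 0.32, -2.67 ± 0.39 and -2.33 ± 0.37). It passed the filter only with the help of the 0 h libraries, so its fall is not independent of the filter.

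**Figure D4:**
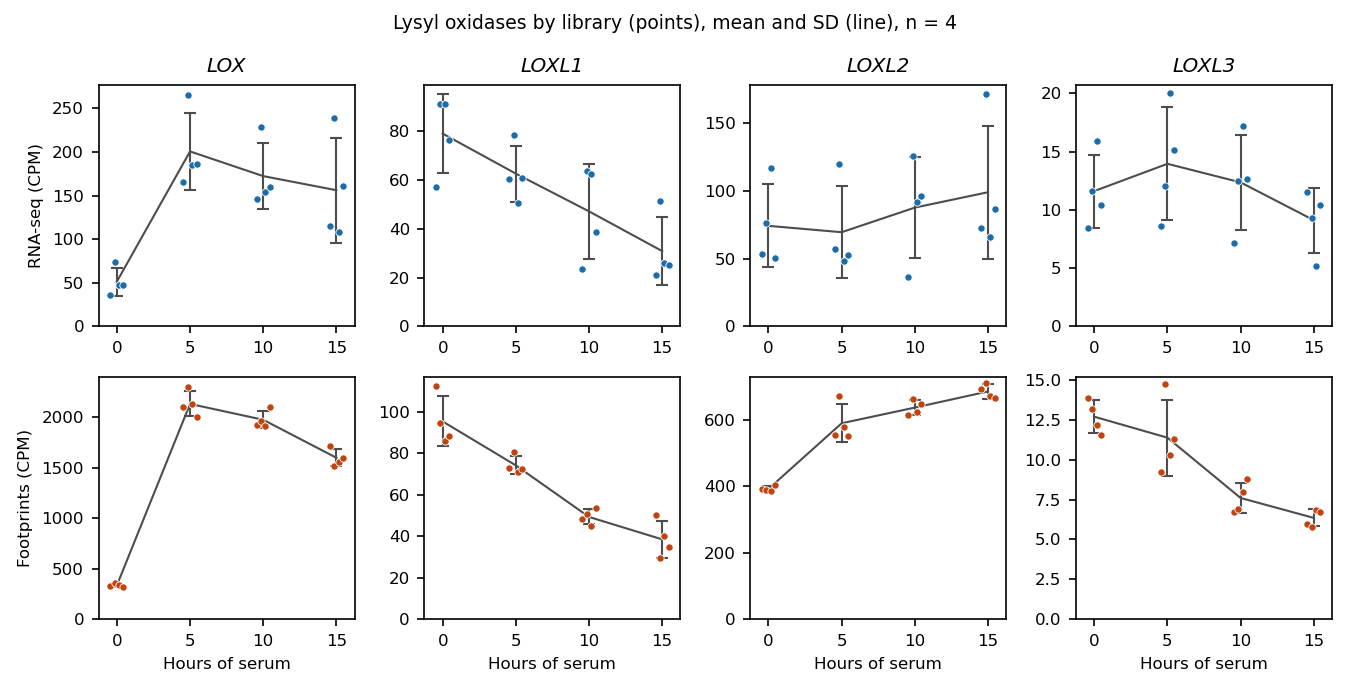
RNA (top, blue) and footprint levels (bottom, red) in CPM of LOX, LOXL1, LOXL2 and LOXL3 over hours of serum; points are the 4 libraries per time, lines join the means and bars are SD. LOX footprints go from 316-355 CPM at 0 h to 2002-2301 at 5 h, while LOXL1 declines in both assays.

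The lysyl hydroxylases also moved in opposite directions. PLOD2, which hydroxylates the telopeptide lysines of collagen, had RNA of 386, 327, 292 and 347 CPM at 0 h, 561, 427, 623 and 561 at 5 h, 717, 447, 556 and 648 at 10 h, and 730, 605, 558 and 797 at 15 h. Footprints were 604, 680, 650 and 656 CPM at 0 h, 751, 969, 784 and 768 at 5 h, 1027, 1129, 995 and 1072 at 10 h, and 975, 1069, 982 and 1094 at 15 h. All serum libraries exceeded all starved ones. The log2 changes were 0.68 ± 0.16, 0.81 ± 0.16 and 0.99 ± 0.16 in RNA and 0.34 ± 0.06, 0.70 ± 0.06 and 0.67 ± 0.06 in footprints. On library totals the 5 h footprint value was 0.04 and not called.

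PLOD1, which acts on helical lysines, fell. Its RNA was 144, 209, 214 and 117 CPM at 0 h, 102, 136, 93.0 and 101 at 5 h, 97.3, 140, 125 and 106 at 10 h, and 85.1, 115, 86.5 and 84.4 at 15 h. Footprints were 320, 359, 335 and 358 CPM at 0 h, 265, 326, 271 and 272 at 5 h, 264, 284, 253 and 294 at 10 h, and 274, 253, 254 and 244 at 15 h. At 10 and 15 h no footprint library reached the starved range, while replicate 2 at 5 h did. The log2 changes were -0.66 ± 0.19, -0.55 ± 0.19 and -0.88 ± 0.19 in RNA and -0.28 ± 0.06, -0.33 ± 0.06 and -0.42 ± 0.06 in footprints. The 10 h RNA call was lost without replicates 2 or 3 at 0 h or 1 or 4 at 10 h (-0.69 to -0.38), and in a fit of those groups alone. The ratio of PLOD2 to PLOD1 per length rose in footprints from 1.81 to 2.76, 3.69 and 3.86 and in RNA from 2.06 to 5.01, 5.05 and 7.12, each with an exact permutation p of 0.0286 (adjusted 0.0390). In footprints at 10 and 15 h, and in RNA at 15 h, PLOD2 lay above and PLOD1 below every starved library. That fixes the p of those ratios, so it adds nothing to the levels. PLOD3, which also adds glucose to hydroxylysine, rose in footprints at 10 h (0.37 ± 0.06; 0.08 and not called on library totals) and 15 h (0.47 ± 0.06).

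The prolyl 4-hydroxylase subunits rose at different times. P4HA2 rose early and returned: its RNA was 46.0, 48.7, 57.8 and 64.3 CPM at 0 h, 116, 119, 98.9 and 108 at 5 h, 76.8, 71.1, 116 and 73.9 at 10 h, and 53.6, 59.8, 65.8 and 57.3 at 15 h. Its footprints were 44.1, 52.9, 45.7 and 54.6 CPM at 0 h, 97.6, 125, 101 and 101 at 5 h, 73.6, 72.2, 75.1 and 81.2 at 10 h, and 55.9, 54.2, 55.1 and 57.4 at 15 h. Libraries of 5 and 10 h stood above 0 h in both assays and those of 15 h overlapped it. The log2 changes were 1.03 ± 0.17, 0.63 ± 0.18 and 0.13 ± 0.18 in RNA and 1.09 ± 0.07, 0.60 ± 0.08 and 0.16 ± 0.08 in footprints, the last of each not called.

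P4HA1 rose late. Its footprints were 102, 117, 106 and 131 CPM at 0 h, 124, 129, 119 and 116 at 5 h, 184, 174, 170 and 175 at 10 h, and 179, 189, 178 and 174 at 15 h. Its RNA was 113, 105, 114 and 135 CPM at 0 h, 105, 83.2, 102 and 137 at 5 h, 180, 116, 106 and 159 at 10 h, and 179, 129, 164 and 198 at 15 h. Footprints of 5 h overlapped those of 0 h (0.09 ± 0.06), and those of 10 and 15 h did not (0.61 ± 0.06 and 0.65 ± 0.06). RNA was called only at 15 h (0.52 ± 0.19), and the call was lost without replicate 2 at 0 h (0.47 to 0.73 over all left-out libraries) and on library totals (0.34). The ratio of P4HA2 to P4HA1 per deposited length in footprints was 0.990 in starved cells and 1.99, 0.987 and 0.710 with serum. The 5 h and 15 h values had an exact permutation p of 0.0286 (adjusted 0.0390) and the 10 h value 0.857. P4HA3 was low (3.40 CPM of footprints at 0 h) and was called only at 15 h (-0.59 ± 0.27), a call lost without replicates 2 or 3 at 0 h or 1, 3 or 4 at 15 h (-0.75 to -0.49), with no filter and with DESeq2.

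SERPINH1 footprints were 853, 899, 832 and 905 CPM at 0 h, 885, 958, 870 and 898 at 5 h, 687, 701, 710 and 761 at 10 h, and 623, 637, 610 and 573 at 15 h. The first 2 groups overlapped, and 10 and 15 h lay below them, with log2 changes of 0.05 ± 0.05, -0.29 ± 0.05 and -0.52 ± 0.05. Its RNA was 288, 353, 397 and 260 CPM at 0 h, 281, 351, 277 and 335 at 5 h, 244, 350, 320 and 338 at 10 h, and 213, 289, 266 and 232 at 15 h. RNA groups overlapped throughout. RNA was called at 15 h (-0.38 ± 0.16, adjusted p = 0.048), and that call was lost without any 1 of 14 of the 16 RNA libraries, all but replicate 4 at 0 h and replicate 2 at 5 h (-0.46 to -0.17), and with DESeq2, RLE factors, either other filter or a fit of those groups alone.

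**Figure D5:**
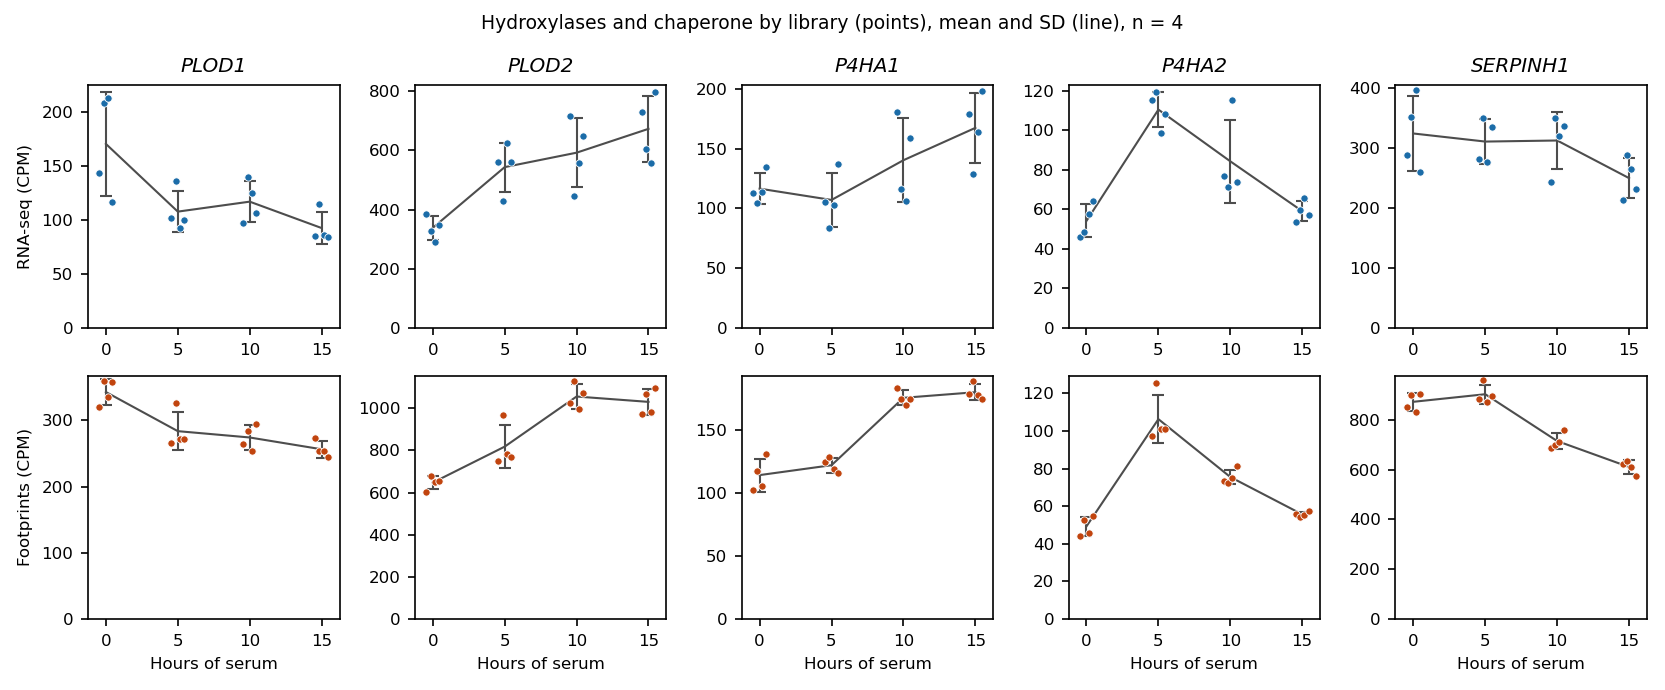
RNA (top, blue) and footprint levels (bottom, red) in CPM of PLOD1, PLOD2, P4HA1, P4HA2 and SERPINH1 over hours of serum; points are the 4 libraries per time, lines join the means and bars are SD. P4HA2 peaks at 5 h, P4HA1 and PLOD2 are highest at 10 and 15 h in footprints, and SERPINH1 footprints are lowest at 15 h.

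As a share of all counted footprints, the 44 chains made up 0.386 ± 0.0064% in starved cells and 0.325 ± 0.020%, 0.308 ± 0.013% and 0.292 ± 0.0096% with serum (SD, n = 4). The 12 enzymes and chaperone made up 0.374 ± 0.012%, 0.516 ± 0.028%, 0.517 ± 0.018% and 0.453 ± 0.0090%. No footprint library with serum overlapped the starved ones in either share. The direction for the chains depended on the scaling: their summed TMM-scaled level was 3200 to 3343 CPM at 0 h, 3201 to 3802 at 5 h and 3090 to 3318 at 15 h, which overlap. For the enzymes the summed level was 3076 to 3301 CPM at 0 h and 5134 to 5969 at 5 h. LOX alone held 39.6% of the summed enzyme CPM at 5 h.

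Translational efficiency, the change of footprints relative to the change of RNA, was tested as the interaction of assay and time. Only LOX was called among the 23 members tested, at 10 h (0.83 ± 0.26, adjusted p = 0.038), where 8.70% of all genes were called. LOX had 0.72 ± 0.26 at 5 h (adjusted p = 0.10) and 0.66 ± 0.26 at 15 h (0.092). The 10 h call was lost with any of 11 of the 32 libraries left out, namely RNA replicates 2 or 3 at 0 h, 3 at 5 h, 1, 3 or 4 at 10 h and 4 at 15 h, and footprint replicates 1 or 4 at 0 h and 2 or 4 at 10 h (0.59 to 0.96). It was also lost with either other filter and on library totals (0.64). At 5 h and 15 h, edgeR called 0 members (2 and 3 at an unadjusted p under 0.05), where 6.40% of all genes were called at 5 h and 11.2% rose and 1.77% fell at 15 h. From 5 to 10 h and from 10 to 15 h, edgeR and DESeq2 also called 0 members (3 and 0 at an unadjusted p under 0.05 in edgeR), and 0.755% and 0% of all genes were called. DESeq2 called 2 members at 5 h and 0 at 15 h. With the replicate block, edgeR called 2 and 3 members at these times, where 1021 and 1701 of 8736 genes were called. For COL4A1 at 5 h the 95% interval was -0.55 to 0.63, for COL8A1 -0.41 to 0.19 and for P4HA2 -0.30 to 0.41. Intervals for chains with sparse RNA were wider, such as 0.71 to 3.29 for COL17A1 at 5 h (adjusted p = 0.059). Within a time, the ratio of footprint to RNA CPM of LOX was 6.50, 10.6, 11.5 and 10.3 at 0, 5, 10 and 15 h, at the 99.0th to 99.7th percentile of genes tested in both assays, and those of LOXL2, PLOD3 and COL12A1 were 5.27, 4.98 and 4.96 at 0 h.

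A list of 46 other genes of collagen folding, export, processing, binding and breakdown was examined beside the members (36 tested in RNA, 40 in footprints). In RNA, 10 rose and 6 fell at 5 h, 10 and 12 at 10 h, and 6 and 15 at 15 h, where 19.2% and 16.7%, 23.3% and 21.5%, and 25.4% and 25.4% of all genes did. In footprints, 18 rose and 16 fell at 5 h, 17 and 18 at 10 h, and 12 and 19 at 15 h, where 35.2% and 40.5%, 39.4% and 39.0%, and 40.1% and 39.6% of all genes did. At 5 h the largest RNA rises were those of ITGA2, FKBP14, P3H2 and SEC24D (3.63 ± 0.19, 1.40 ± 0.32, 1.26 ± 0.23 and 1.22 ± 0.17). ITGA2, a collagen-binding integrin subunit, went from 221 ± 15 CPM of footprints at 0 h to 2732 ± 207 at 5 h and stood at 212 ± 8.2 at 15 h. SEC24D encodes a coat protein of the vesicles that export procollagen. The largest footprint falls at 15 h were those of the collagen receptor kinase DDR1 (-2.06 ± 0.07), the integrin subunit ITGA10 (-1.90 ± 0.15), the propeptidase ADAMTS14 (-1.54 ± 0.40) and the galactosyltransferase COLGALT2 (-1.52 ± 0.12). Of the 7 collagen receptors tested, 5 fell in RNA at 15 h and 6 in footprints, where 25.4% and 39.6% of all genes fell. The receptors are 1 of several groups on the list. In footprints at 15 h, 4 of 11 genes of folding and modification rose and 2 fell. For export the numbers were 3 and 4 of 8, and for propeptide processing 2 and 3 of 5.

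In translational efficiency, 3 of the 36 listed genes rose at 5 h, CRTAP, FKBP10 and P3H2, where 404 of 8736 genes tested rose. CRTAP, a subunit of the prolyl 3-hydroxylase complex, fell in RNA at 5 h (-0.62 ± 0.15) while its footprints rose (1.20 ± 0.06). Its translational efficiency changed by 1.81 ± 0.15, 1.95 ± 0.15 and 1.98 ± 0.15 at the 3 times. The values for FKBP10, a collagen-binding prolyl isomerase, were 0.80 ± 0.17, 0.60 ± 0.16 and 0.60 ± 0.16.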

How the data were processed

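RNA and ribosome footprints were measured in 16 libraries each. The labels' protocols name rRNA depletion and a small-RNA library kit for both. The authors deposited 1 table of raw read counts per gene, made with STAR 2.5.4a and featureCounts 1.5.1 on GRCh38 (tools per the submitters' processing notes). Which annotation was used, and how multiply mapped reads were handled, is not given in the sources used here. Deposited counts entered as they are, with no blank or summary rows. Lengths in the table are coding lengths (96.5% are multiples of 3), and those of COL10A1, P4HA2 and P4HA3 look partial, so levels per length of these genes are uncertain. Symbols were matched by Ensembl ID for 18905 of 19023 rows.

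Counts were filtered with filterByExpr (minimum count 10) and scaled by TMM within each assay, and all 4 times of an assay were fitted together with edgeR 4.0.16 (glmQLFit, glmQLFTest). Translational efficiency was the assay-by-time term of a fit over all 32 libraries. p-values were adjusted over all genes tested (8775 in RNA, 10959 in footprints, 8736 in both), and the fits were tested on simulated data. Intervals are 95% and use the normal approximation of the fitted standard error. Ratios of member pairs were compared by two-sided exact permutation tests. Every member that passed the filter is named. Values in every library are given for the 12 members with a group mean of at least 20 CPM in both assays and a call in both, and for COL4A2 as the partner of COL4A1, which was chosen after its values were seen. Of the 46 other collagen genes, those named are among the 4 largest called rises or falls of a contrast. The members and lists were chosen with earlier results of these data known. Alternatives were RLE factors, other filters, DESeq2 1.42.0, a replicate block, fits of the compared groups alone, each library left out, and library totals without TMM, the last chosen after seeing the data. Promoter sequences are from RefSeq (GRCh38.p14).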

Additional observations from a re-analysis of the deposited data

Results flagged for a closer look

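In 96 groups of 4 libraries (12 members, both assays, 4 times), 9 held a library whose gap to its nearest neighbour exceeded Dixon's 95% critical value, which chance gives in about 1 in 20 groups. Replicate 2 of the footprints at 5 h accounted for 4 of them: COL7A1 at 83.1 CPM (others 59.1 to 62.2), P4HA2 at 125 CPM (97.6 to 101), PLOD1 at 326 CPM (265 to 272) and PLOD2 at 969 CPM (751 to 784). Replicate 2 of RNA accounted for 3, with LOX at 229 CPM at 10 h (146 to 159), LOXL1 at 51.4 CPM at 15 h (21 to 25.8) and PLOD1 at 115 CPM at 15 h (84.4 to 86.5). The others were P4HA2 RNA in replicate 3 at 10 h, at 116 CPM (71.1 to 76.8), and COL4A5 footprints in replicate 4 at 10 h, at 135 CPM (129 in all others). The cause of these values was not tested.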

How the results depend on the processing

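Of 147 called results for single members, 118 kept their call with every left-out library and 29 lost it with at least 1. Under DESeq2, 7 of the 147 were no longer called, under RLE factors 1, with no filter 9, with the replicate block 2, with only the compared groups 6 of 138, with the stricter filter (a mean of 5 CPM) 4 of 121, and on library totals without TMM 8. Library totals turned 2 directions, both in footprints: COL18A1 at 5 h (-0.078) and COL7A1 at 15 h (-0.083). The cause was not tested. Among all genes, library totals changed the footprint calls at 5 h from 3858 higher and 4439 lower to 2554 and 6067.

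Apart from those under the replicate block, given below, counts of called members that moved by over 1.5 times were few. For translational efficiency at 5 h (0 called), DESeq2 gave 2, only the compared groups 1 and library totals 1. At 10 h (1 called) the stricter filter and library totals gave 0, and at 15 h (0 called) no filter gave 1. For RNA from 10 to 15 h, library totals gave 1. With a library left out, counts ranged over 7 to 8 in RNA at 5 h, 6 to 10 at 10 h, 6 to 11 at 15 h, 0 to 1 from 5 to 10 h and 0 from 10 to 15 h. In footprints they ranged over 24 to 27, 27 to 30, 26 to 31, 17 to 21 and 13 to 16. For translational efficiency they ranged over 0 to 2 at 5 h, 0 to 1 at 10 h and 0 to 2 at 15 h, and were 0 in both later steps.

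Replicate numbers are shared across groups, but the deviations of same-numbered libraries correlated over 0.1 in 17 of 24 RNA pairs (median 0.20), against 14 of 72 RNA pairs with unlike numbers (median -0.079). They did so in 1 of 24 footprint pairs and 0 of 16 pairs of RNA with footprints. The RNA numbers thus carry a hint of pairing from the data, but 7 pairs fell short of 0.1 and the labels state no shared batch, so the numbers were not taken as pairs. With the replicate block, 4 members were called in RNA from 5 to 10 h and 2 from 10 to 15 h, where the fit without it called 0, and translational efficiency gave 2 at 5 h and 3 at 15 h. COL18A1 at 10 h and COL1A1 from 5 to 10 h, both in footprints, lost their calls under the block. RNA depth limits the smaller members: 12 could be tested in footprints only.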
